A study of Mus musculus with 4 samples.

Results

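Constitutive proteasome genes were measured on Affymetrix arrays of total RNA from mouse T cells kept in either the Tc1 or the Tc9 cytokine condition, with 2 arrays per group. The members were the genes whose symbol in the platform annotation begins with Psm, a letter from a to g and a number, without the 3 immunoproteasome subunits Psmb8, Psmb9 and Psmb10. They came to 47 of the 19505 genes tested, each measured by 1 probe set, and fell into 8 Psma, 7 Psmb, 7 Psmc, 14 Psmd and 11 Psme to Psmg genes. The symbol pattern also took in 5 genes that are not standard subunits or factors of the T cell proteasome, leaving 42 without them. Psma8 and Psmb11 are the testis and thymus forms, Psme2b is a close copy of Psme2, Psmc3ip encodes a partner of meiotic recombinases, and Psme3ip1 a protein that binds the activator encoded by Psme3. Psmb5, which encodes the catalytic subunit with chymotrypsin-like activity, is not analysed here.

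The groups are Tc1 and Tc9, each with arrays numbered 1 and 2 in the sample titles. By background knowledge both are states of CD8 T cells: Tc1 cells are cytotoxic and secrete interferon gamma, whereas Tc9 cells secrete interleukin 9. The labels give no cytokines, culture times, strain, age or source of the cells, and do not say that the replicates were separate cultures or animals. The p-values therefore measure only the spread between these samples, which may be technical.

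The proteasome degrades proteins that carry ubiquitin chains and supplies peptides for MHC class I molecules. Its core particle is a barrel of Psma rings, which form the gate, and Psmb rings, which hold the proteolytic sites. The regulatory particle, of Psmc ATPases and Psmd subunits, binds ubiquitin chains, unfolds the substrate and feeds it into the core. Other activators, encoded by Psme genes, can bind the core in its place, and Psmg proteins help to assemble it. In T cells exposed to interferon gamma, Psmb8, Psmb9 and Psmb10 can replace the constitutive catalytic subunits.

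All 6 measured T cell markers of the CD8 list (Cd8a, Cd8b1, Cd3d, Cd3e, Cd3g and Cd2) exceeded the control level on all 4 arrays, which is the intensity that 95% of the negative control probe sets stay under, and their summed normalized intensity was 17571 to 18542 in Tc1 and 18501 to 19241 in Tc9. Of the measured markers of other cells, 0 of 4 B cell, 0 of 3 CD4 T cell, 0 of 5 myeloid, 0 of 2 NK cell, 0 of 1 gamma-delta T cell and 0 of 3 erythroid and platelet genes did so. The summed signal did not overlap between the groups for the myeloid list (194 on both Tc1 arrays, 212 to 247 in Tc9) and for the erythroid and platelet list (172 to 175 in Tc1, 129 to 151 in Tc9), and the part of either in any result was not tested. The deposited intensities came on 2 scales that followed the number: array medians were 37.1 (Tc1) and 37.9 (Tc9) for number 1, with a median of 10 written digits, but 57.3 and 57.1 for number 2, with 7 digits. Values below are quantile normalized intensities, and differences are of log2(intensity + 16), Tc9 minus Tc1, unless another scale is named. By limma, 110 of the 19505 genes passed an adjusted p of 0.05. In bulk RNA, fewer cells of a type and less RNA per cell cannot be told apart.

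No proteasome gene passed the test between Tc1 and Tc9 cells, and the measured differences were small. By limma, 0 of the 47 passed an adjusted p of 0.05, against 0.564% of all genes, and 0 of 47 had an unadjusted p under 0.05, against 5.28% of all genes. The smallest adjusted p was 0.949, for Psmc3ip, which is not a proteasome subunit. The log2 differences ran from -0.49 (Psmc3ip) to 0.35 (Psmb11), and from -0.30 to 0.17 over the 42 genes without the 5 named above. The median was -0.065 over the 47, against -0.0027 over all genes tested. Of the 47, 43 exceeded the control level on all 4 arrays; their 95% confidence intervals all lay within a 2-fold change either way, and 35 of them within a 1.5-fold change. Psma8, Psmb11 and Psmg3 stayed under that level on every array, and Psmg4, over it on 3, had an interval of -1.04 to 0.50. The call depended on the model. With the replicate number as a block, 6 members passed (12.8%), against 13.7% of all genes and 33.1% of the brightest 25% by mean.

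The differences leaned slightly to lower values in Tc9. A negative log2 difference was found for 33 of 47 members (70.2%), against 50.7% of all genes, and for 38 with the intensities as deposited and 39 with median centring. It was negative in both pairs of same-numbered arrays for 24 (51.1%), against 32.0% of all genes, and positive in both for 7, against 30.1%; the other 16 had opposite signs in the pairs. The median was -0.011 in the arrays numbered 1 and -0.056 in those numbered 2. Both Tc9 arrays lay below both Tc1 arrays for 6 members (12.8%), against 15.1% of all genes, and above them for 3 (6.38%), against 14.0%. Among the brightest 25% of genes by mean, a comparison chosen after the values were seen, 53.4% were negative and 41.7% negative in both pairs. The median changed sign when 1 of 2 arrays was left out. Without the Tc1 array numbered 1 the median was 0.013, with 23 of 47 negative, and without the Tc9 array numbered 2 it was 0.031, with 21 negative. Without the Tc1 array numbered 2 or the Tc9 array numbered 1 it was -0.087 and -0.089. Leaving out 1 array also unbalances the numbers, and the members' median difference of number 2 minus number 1 was -0.10 in Tc1 and -0.094 in Tc9. Within the arrays numbered 1 and 2, 28 and 36 of the 47 were negative.

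**Figure D1:**
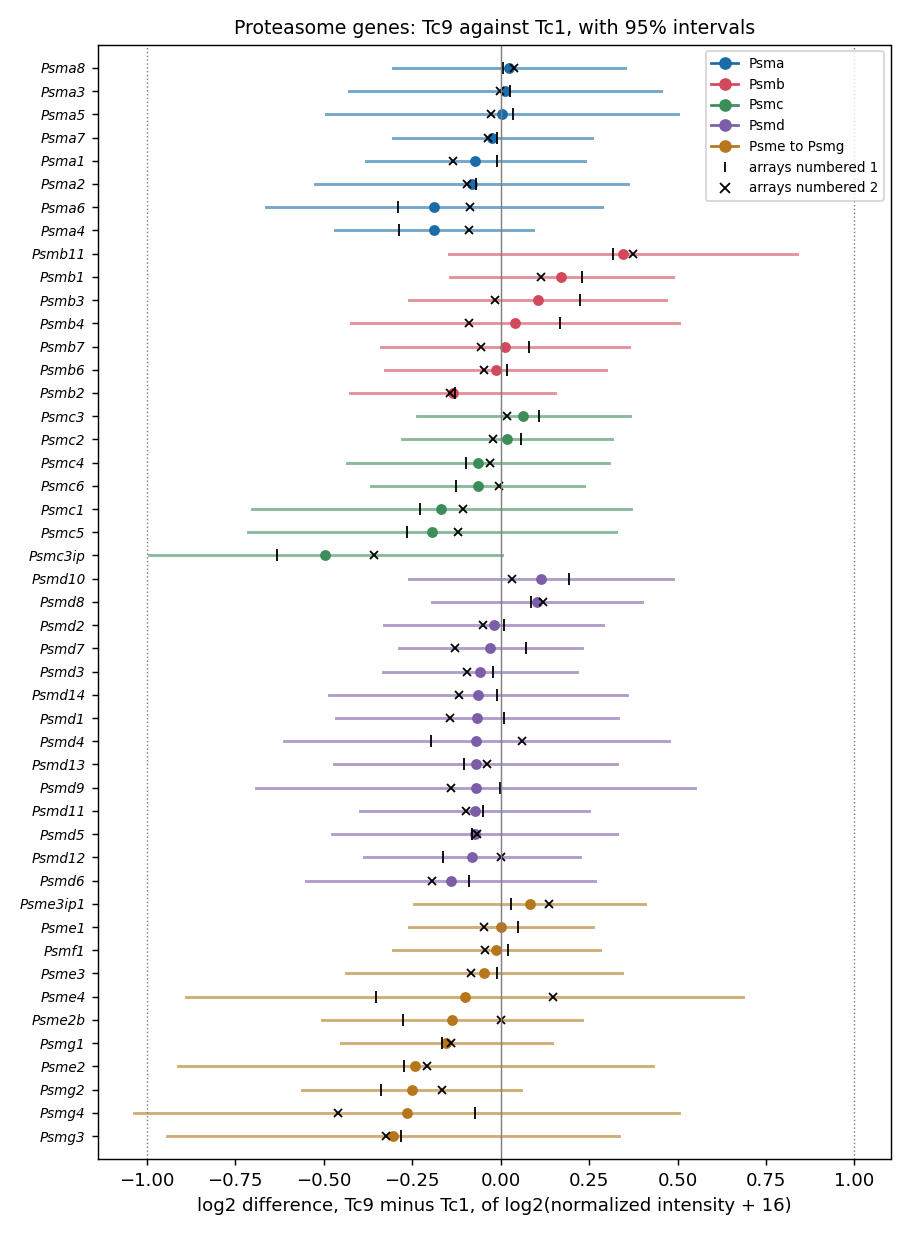
Log2 difference (Tc9 minus Tc1) of the 47 proteasome genes, grouped by family. Dots are the limma estimates, horizontal lines the 95% confidence intervals, and the black marks the differences within the arrays numbered 1 (bars) and 2 (crosses); dotted lines mark a 2-fold change. All intervals cross 0, and Psmg4 alone reaches past a 2-fold change.

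The alpha subunits, which form the outer rings and the gate of the core particle, had small differences. Over the 8 Psma genes the median log2 difference was -0.047, with 5 negative. Psma4 measured 3651 and 3204 in Tc1 (numbers 1 and 2, in this order throughout) and 2991 and 3008 in Tc9. Both Tc9 values lay below both Tc1 values, and the log2 difference was -0.19 ± 0.12 (SE, n = 2 per group). Psma5 and Psma3 were closest to 0 among the alpha subunits, at 0.0037 and 0.013, and both signs turned with the intensities as deposited (-0.022 and -0.036) and with median centring (-0.040 and -0.055). For Psma3 the values were 2053 and 1580 in Tc1 and 2091 and 1579 in Tc9, so the arrays numbered 1 were higher in both groups and the groups overlapped. Psma8, the testis form, measured 15.81 and 19.22 in Tc1 and 15.96 and 20.19 in Tc9, under the control level on all 4 arrays.

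Among the beta subunits, the constitutive catalytic genes Psmb6 and Psmb7 had the smallest differences. Psmb6, whose product cuts after acidic residues, measured 2255 and 2043 in Tc1 and 2286 and 1977 in Tc9. The log2 difference was -0.014 ± 0.13 (SE, 95% interval -0.33 to 0.30). Psmb7, whose product cuts after basic residues, measured 2090 and 2607 in Tc1 and 2209 and 2508 in Tc9. Its difference was 0.012 ± 0.15 (95% interval -0.34 to 0.36), and for both genes the groups overlapped. The sign of the Psmb7 difference turned with the intensities as deposited (-0.014) and with median centring (-0.033).

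The other beta subunits pointed both ways. Psmb1 measured 1742 and 1623 in Tc1 and 2046 and 1757 in Tc9, with both Tc9 arrays higher, and had the largest positive difference among core subunits at 0.17 ± 0.13. Psmb2 measured 2070 and 2255 in Tc1 and 1890 and 2043 in Tc9, with both Tc9 arrays lower, a difference of -0.14 ± 0.12. Psmb3 measured 1489 and 1386 in Tc1 and 1744 and 1371 in Tc9, a difference of 0.10 that was 0.23 in the arrays numbered 1 and -0.016 in those numbered 2. Psmb4 had a difference of 0.040, which was -0.0068 with median centring. Psmb11, the thymus form, measured 15.4 and 23.9 in Tc1 and 23.2 and 35.8 in Tc9. These values were under the control level on all 4 arrays, and its difference of 0.35 is one of dim signals. Over the 13 measured standard core subunits, Psma and Psmb together, the median was -0.014.

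The Psmc ATPases, which form the unfolding ring of the regulatory particle, had a median of -0.065 over the 6 subunits. Psmc3 had their largest positive difference, at 0.064 ± 0.13, with 1914 and 1798 in Tc1 and 2066 and 1823 in Tc9. Psmc5 had their largest negative difference, at -0.19 ± 0.22, with 757 and 994 in Tc1 and 628 and 912 in Tc9. The arrays numbered 2 were higher in both groups, by 0.38 in Tc1 and 0.53 in Tc9 on the log2 scale, and the groups overlapped. Psmc1 ran the other way between the numbers, with 1579 and 1064 in Tc1 and 1345 and 987 in Tc9. Psmc3ip, which is not a proteasome subunit, measured 304 and 232 in Tc1 and 191 and 178 in Tc9. Both of its Tc9 values lay below both Tc1 values, and its difference was -0.49 ± 0.21 (1.41-fold lower; limma adjusted p = 0.949).

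The Psmd subunits of the regulatory particle and its chaperones had 12 of 14 differences below 0, over a range of -0.14 to 0.11. Psmd14, which removes ubiquitin chains from substrates, measured 1241 and 1636 in Tc1 and 1232 and 1507 in Tc9 (-0.064 ± 0.18). Psmd4, a ubiquitin receptor, measured 1424 and 918 in Tc1 and 1241 and 958 in Tc9 (-0.068 ± 0.23). Their groups overlapped, and Psmd4 had opposite signs in the pairs. Psmd1 and Psmd2, the large scaffold subunits, had differences of -0.066 and -0.020. The largest negative difference was that of Psmd6, a lid subunit, at -0.14 ± 0.17, with 1304 and 1088 in Tc1 and 1225 and 950 in Tc9. The 2 positive ones were Psmd10, an assembly chaperone also named gankyrin, and Psmd8, a lid subunit. Psmd10 measured 409 and 441 in Tc1 and 471 and 451 in Tc9 (0.11 ± 0.16), and Psmd8 measured 1407 and 1318 in Tc1 and 1496 and 1434 in Tc9 (0.10 ± 0.13). In both genes the Tc9 arrays lay above the Tc1 arrays. Over the 11 lid and base subunits, without the chaperones Psmd5, Psmd9 and Psmd10, the median was -0.066.

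The activators of the core had differences of both signs, none past the test. Psme1, the alpha chain of the interferon-inducible activator, measured 6677 and 6329 in Tc1 and 6915 and 6122 in Tc9, a difference of 0.0013 ± 0.11 (95% interval -0.26 to 0.26) whose sign turned with the intensities as deposited (-0.017) and with median centring (-0.036). Psme2, its beta chain, measured 1969 and 1194 in Tc1 and 1627 and 1031 in Tc9, a difference of -0.24 ± 0.28. The Psme2 differences were -0.27 and -0.21 within numbers 1 and 2, while the arrays numbered 1 lay above those numbered 2 by more than that in both groups. Psme2b measured 751 and 634 in Tc1 and 618 and 635 in Tc9, and sharing of signal with Psme2 was not examined. The nuclear activator gene Psme3 measured 3057 and 3957 in Tc1 and 3034 and 3732 in Tc9 (-0.048). Psme4, a large activator of testis and DNA repair, measured 256 and 359 in Tc1 and 197 and 400 in Tc9. Its pairs had opposite signs, -0.35 and 0.15. Psmf1, an inhibitor of the core in vitro, measured 2275 and 2129 in Tc1 and 2306 and 2066 in Tc9 (-0.012), and Psme3ip1 measured 1323 and 1432 in Tc1 and 1350 and 1575 in Tc9 (0.082).

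The assembly chaperones of the core particle, Psmg1 to Psmg4, all had negative differences in both pairs; none passed without the block, and Psmg2 passed with it (limma adjusted p = 0.00296). Psmg1 measured 1254 and 1237 in Tc1 and 1117 and 1120 in Tc9, and Psmg2, its partner, 1462 and 1313 in Tc1 and 1154 and 1169 in Tc9. In both, the Tc9 arrays lay below the Tc1 arrays. The differences were -0.15 ± 0.13 for Psmg1 and -0.25 ± 0.13 for Psmg2 (limma without the block, unadjusted p = 0.263 and 0.0961). Psmg3 measured 114 and 86.1 in Tc1 and 90.9 and 65.5 in Tc9, under the control level throughout. Psmg4 measured 287 and 199 in Tc1 and 272 and 141 in Tc9, and exceeded it on 3 arrays. Over these 4 and the chaperones Psmd5, Psmd9 and Psmd10 the median was -0.15, with 6 of 7 negative, against -0.065 over all members.

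**Figure D2:**
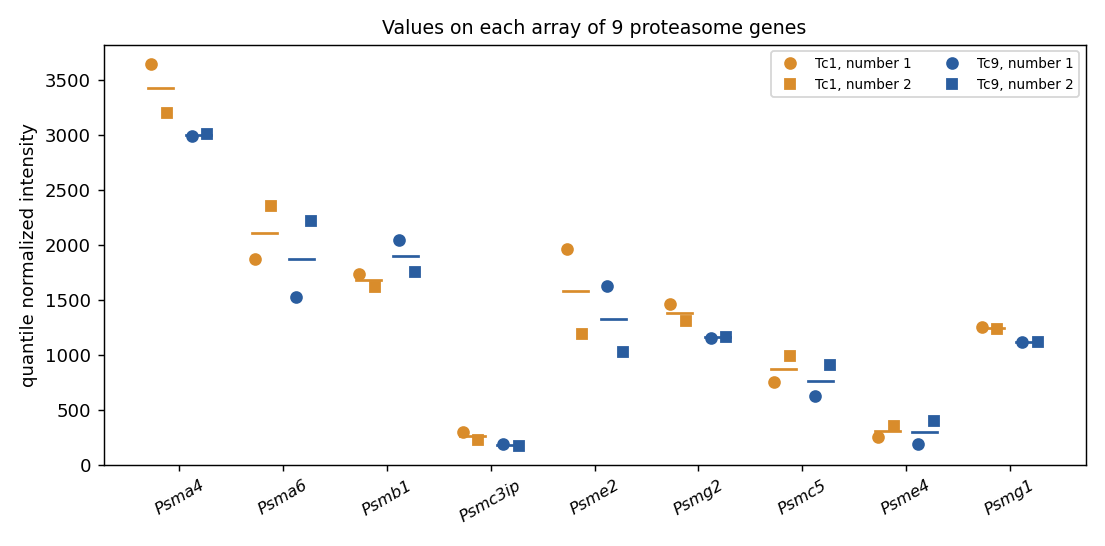
Quantile normalized intensity of 9 proteasome genes on each of the 4 arrays; circles are arrays numbered 1, squares those numbered 2, and lines the group means. Levels of different genes are read by different probe sets and are not comparable. Both Tc9 values lie below both Tc1 values for Psma4, Psmc3ip, Psmg1 and Psmg2 (as for 15.1% of all genes). They lie above them for Psmb1 (as for 14.0%). Psma6, Psmc5, Psme2 and Psme4 differ more between numbers than between Tc1 and Tc9.

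The members differed more between the arrays numbered 1 and 2 than between the cell types. The median absolute log2 difference was 0.23 between the Tc1 arrays and 0.22 between the Tc9 arrays, but 0.089 and 0.091 between Tc1 and Tc9 within numbers 1 and 2. Over all genes the same medians were 0.19, 0.21, 0.15 and 0.12. In 29 of 47 members (61.7%) both differences between numbers were larger than both differences between cell types, against 33.7% of all genes. Differences between numbers were shared by the groups. Across the 47 genes, that of Tc1 and that of Tc9 correlated with r = 0.885, a description over genes that are not independent. The same r was 0.729 across all genes and 0.864 across the brightest 25% of genes by mean. Psme2 was at -0.71 in Tc1 and -0.65 in Tc9, Psmg4 at -0.49 and -0.88, and Psme4, the highest, at 0.47 and 0.97. A difference between cultures and one between array batches cannot be told apart here, because the number and the scale of the files coincide.

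**Figure D3:**
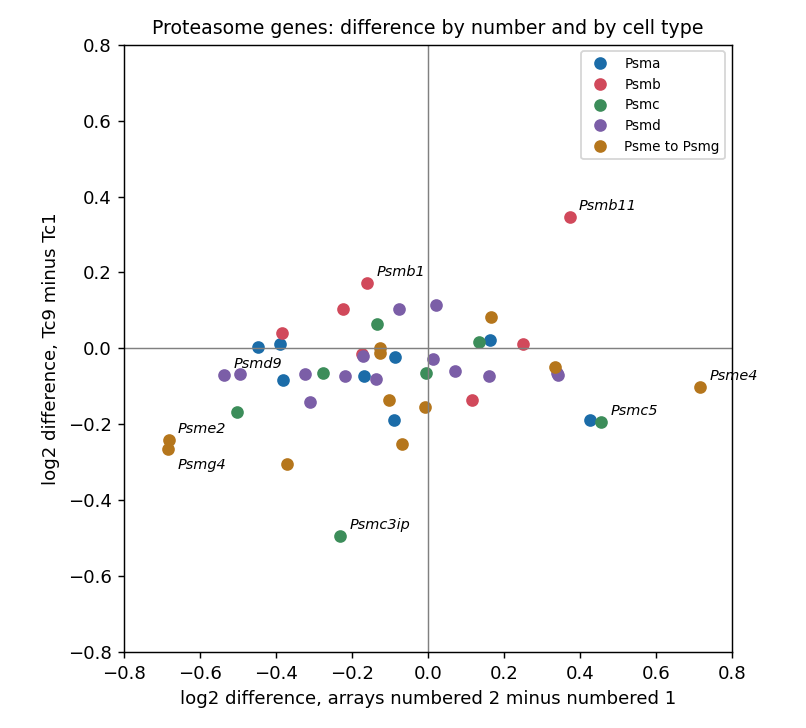
Each of the 47 proteasome genes by its log2 difference between arrays numbered 2 and 1 (horizontal, mean of Tc1 and Tc9) and between Tc9 and Tc1 (vertical), on equal axes. The points spread further along the horizontal axis, with Psme2 and Psmg4 at the left and Psme4 at the right, and apart from Psmc3ip and Psmb11 lie between -0.30 and 0.17 on the vertical axis.

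With the replicate number as a block, which takes this shared part out of the spread, 6 of the 47 members (12.8%) passed limma, against 13.7% of all genes. The share of members was thus close to that of all genes. The members are brighter than most genes, with 43 of 47 over the control level on all arrays, and among the brightest 25% of genes 33.1% passed with the block. Of the 6, 5 were lower in Tc9 (10.6%, against 7.37% of all genes and 17.7% of the brightest 25%). The remaining 1 was higher (2.13%, against 6.34% of all genes and 15.3% of the brightest 25%). The lower ones were Psmc3ip (adjusted p with the block = 0.00130), Psma4 (0.00224), Psmg2 (0.00296), Psme2 (0.00322) and Psma6 (0.0140), and the higher one was Psmb1 (0.0367). Psma6, an alpha subunit named outside the rule, measured 1875 and 2353 in Tc1 and 1531 and 2217 in Tc9, lower in Tc9 within each number. Leaving aside Psmc3ip, the 5 differences were at most 1.19-fold lower and 1.13-fold higher. The block left 1 residual degree of freedom, and the spread was in effect taken from all genes of like intensity.

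Constitutive and immunoproteasome catalytic genes were set side by side. Psmb8 measured 1885 and 1923 in Tc1 and 1349 and 1248 in Tc9 (-0.55 ± 0.12, limma adjusted p = 0.207). Psmb9 measured 968 and 862 and then 753 and 569 (-0.47 ± 0.18, limma adjusted p = 0.788). Psmb10 measured 485 and 439 and then 364 and 355 (-0.35 ± 0.16, limma adjusted p = 0.999855, unadjusted p = 0.0701). All 3 had Tc9 arrays below the Tc1 arrays, and 0 of the 3 passed limma's adjusted threshold, with 2 at an unadjusted p under 0.05. With the replicate block all 3 passed, lower in Tc9, as did 7.37% of all genes and 17.7% of the brightest 25%. The mean log2 of Psmb6 and Psmb7 minus that of Psmb8, Psmb9 and Psmb10 was 1.16 and 1.34 in Tc1 and 1.62 and 1.79 in Tc9. The level of this quantity depends on the brightness of the probe sets, and only its difference between groups is of use. It was higher by 0.45 in Tc9 (0.46 and 0.45 in the pairs), with the groups not overlapping. The exact permutation test over arrays gave p = 0.333, 2-sided, the smallest that 2 arrays against 2 allow. The difference ranged from 0.36 to 0.55 over the alternatives run.

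**Figure D4:**
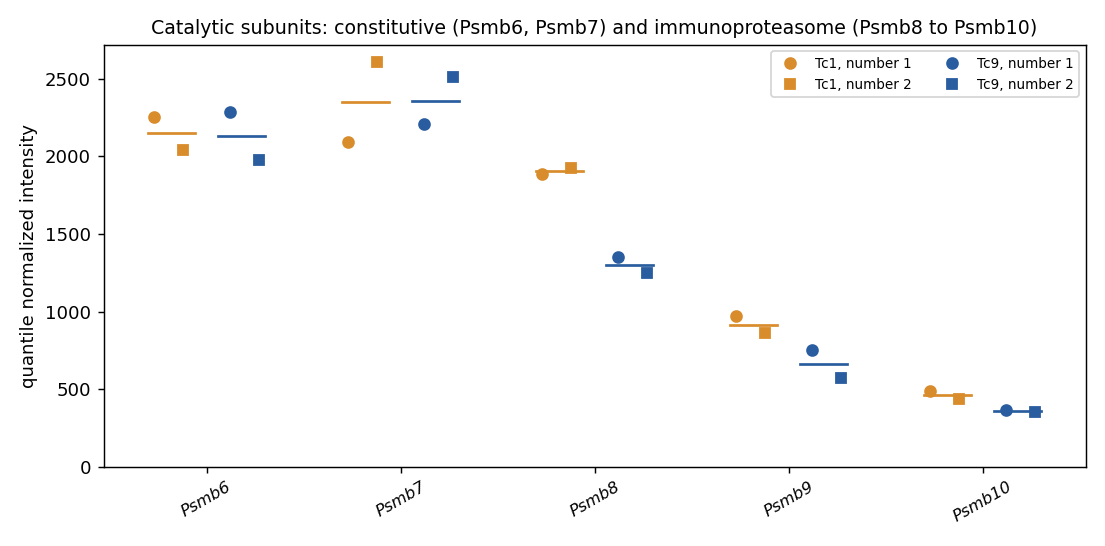
Quantile normalized intensity of the catalytic subunit genes on each array, with circles for number 1, squares for number 2 and lines for group means. The Tc1 and Tc9 values of Psmb6 and Psmb7 overlap. Both Tc9 values of Psmb8, Psmb9 and Psmb10 lie below both Tc1 values (as for 15.1% of all genes).

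Of 62 other genes of the ubiquitin, proteasome and peptide loading pathway, 53 were measured and 9 are not analysed here. By limma 0 of the 53 passed. An unadjusted p under 0.05 was found for 10 (18.9%), against 5.28% of all genes and 557 of the 4877 brightest. Over the 53 the median log2 difference was -0.072. With the block, 17 were lower and 5 higher (41.5% in all), against 13.7% of all genes and 33.1% of the brightest 25%. The group nearest to the proteasome held 10 measured genes outside the Psm names: Akirin2, Ecpas, Ipo9, Pomp, Sem1, Txnl1, Ube3c, Uchl5, Usp14 and Zfand5. This group had a median of -0.25, with 8 of 10 negative. In it, Uchl5, a deubiquitinase of the regulatory particle, measured 1828 and 1900 in Tc1 and 1326 and 1561 in Tc9 (-0.37, adjusted p = 0.741), and Txnl1, a proteasome-bound thioredoxin, had a difference of -0.37 (adjusted p = 0.791). Pomp, the maturation factor of the core, measured 1244 and 1718 in Tc1 and 1106 and 1365 in Tc9 (-0.25). Sem1, a small regulatory particle subunit, measured 1317 and 1063 in Tc1 and 1588 and 1244 in Tc9 (0.25).

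Regulators of proteasome gene expression had a median of 0.024 over 12 genes, 4 of them under the control level on every array. Nfe2l1, the transcription factor that raises proteasome genes when degradation is blocked, measured 1057 and 1370 in Tc1 and 969 and 1283 in Tc9. Its difference was -0.11 ± 0.19, with -0.12 and -0.093 in the pairs, and its arrays numbered 2 were higher in both groups. Nfyc, a subunit of the factor that binds CCAAT boxes, had a difference of -0.20, and Maff, a small partner of Nfe2l1, 0.62 at a signal under that level. Among 11 shuttle and extraction factors the median was -0.043, from -0.38 for Faf1 to 0.28 for Sqstm1, an autophagy receptor. Of the ubiquitin genes and activating enzymes only Uba6 was measured, at -0.11. Peptidases that trim proteasome products had a median of -0.096 over 8 genes, from -0.52 for Nln to 0.0028 for Blmh, whose sign turned as deposited (-0.028) and with median centring (-0.046). Among 8 peptide loading genes the median was -0.047, and Tapbpl, a relative of tapasin, measured 1191 and 847 in Tc1 and 436 and 344 in Tc9, the largest difference in these lists at -1.34 ± 0.21 (limma adjusted p = 0.0545). Tapbpl passed limma with the block (adjusted p = 1.11e-50), a fit with 1 residual degree of freedom that took its spread in effect from other genes. Without the block, the limma adjusted p of Tapbpl was 0.0503 with pseudocount 1 and 0.999997 with the intensities as deposited. Its adjusted p under the intensity filters is not given here. Fits without 1 array leave 1 array in a group, and their p-values for Tapbpl are not given. Calr had the largest positive difference of that list, at 0.19.

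**Figure D5:**
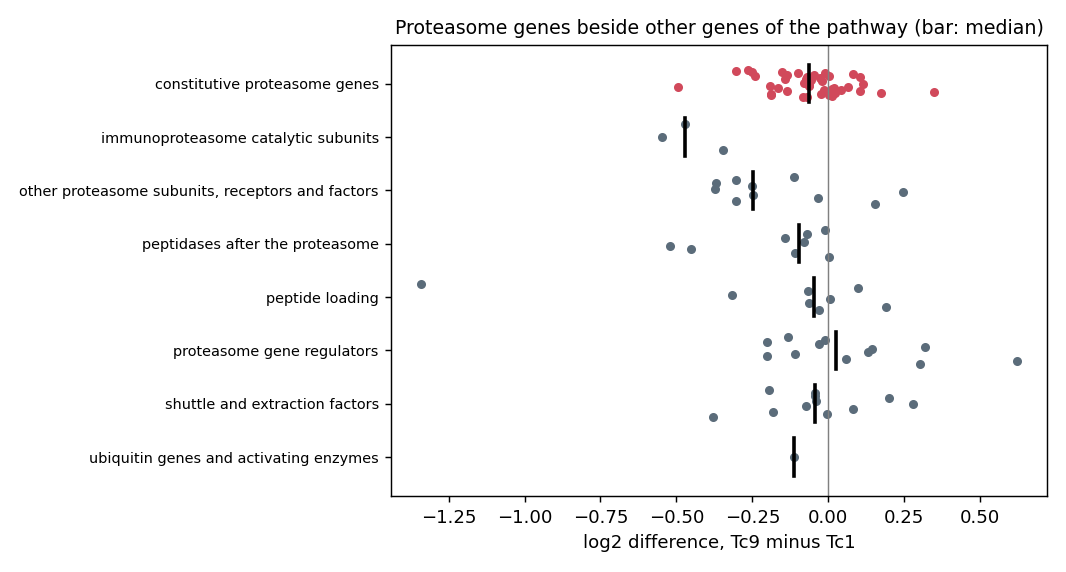
Log2 difference (Tc9 minus Tc1) of single genes, as dots, in the constitutive proteasome set and in 7 lists of related genes; black bars are medians. The 47 proteasome genes cluster around -0.065, and the 3 immunoproteasome genes lie between -0.55 and -0.35.

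The promoters of the members were read to show what the genes share in sequence. RefSeq promoter sequences (GRCm38.p6) were at hand for 39 of the 47, and the 250 bases before the start were searched on both strands. CCGGAAG, the core of ETS factor sites, was found in 13 of 39 members (33.3%), against 7.83% of all genes with a promoter sequence. The CCAAT box was found in 15 (38.5%, against 37.5%), the E-box CACGTG in 4 (10.3%, against 6.86%), and TGACNNNGC, the core of the antioxidant response element to which Nfe2l1 with its Maf partners can bind, in 4 (10.3%, against 11.5%). The palindromic site of nuclear respiratory factor 1 was found in 1 member, Psma2 (2.56%, against 0.877%). A gene with several listed promoters counted once if any held the letters. A match is a description of the letters, and the comparison set holds promoters of every kind of gene. The 4 below show the matches in genes of different roles: a catalytic subunit, an ATPase, a lid subunit and the chaperone with the largest positive difference among the members above background save Psmb1. Letters are lower case, 5′ to 3′ in the direction of the gene, with CCAAT, TGACNNNGC and CCGGAAG, on either strand, in capitals.
Psmb6, chr11:70525107-70525356, plus strand: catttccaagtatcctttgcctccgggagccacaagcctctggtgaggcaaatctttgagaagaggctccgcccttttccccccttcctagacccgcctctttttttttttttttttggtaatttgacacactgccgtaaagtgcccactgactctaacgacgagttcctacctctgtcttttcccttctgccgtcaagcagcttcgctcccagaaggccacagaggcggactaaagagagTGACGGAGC
Psmc1, chr12:100109952-100110201, plus strand: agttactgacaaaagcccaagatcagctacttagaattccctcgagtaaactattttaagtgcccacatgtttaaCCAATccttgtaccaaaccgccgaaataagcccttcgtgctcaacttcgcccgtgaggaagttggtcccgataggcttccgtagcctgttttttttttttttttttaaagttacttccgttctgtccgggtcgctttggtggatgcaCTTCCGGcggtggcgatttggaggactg
Psmd12, chr11:107479278-107479527, plus strand: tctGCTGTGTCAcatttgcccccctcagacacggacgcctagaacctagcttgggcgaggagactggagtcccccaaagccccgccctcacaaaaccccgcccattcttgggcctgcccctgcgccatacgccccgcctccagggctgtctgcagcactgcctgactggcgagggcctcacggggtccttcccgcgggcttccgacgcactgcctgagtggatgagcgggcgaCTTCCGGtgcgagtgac
Psmd10, chrX:140956712-140956961, minus strand: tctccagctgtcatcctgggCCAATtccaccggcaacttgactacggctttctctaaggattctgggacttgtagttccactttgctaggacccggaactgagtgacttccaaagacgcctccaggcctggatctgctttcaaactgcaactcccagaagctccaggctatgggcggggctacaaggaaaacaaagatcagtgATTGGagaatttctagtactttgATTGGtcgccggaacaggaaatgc

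In Psmb6 the capitals mark TGACNNNGC in the last 9 bases before the start. In Psmc1 they mark CCAAT and, on the other strand, CCGGAAG, and in Psmd12 TGACNNNGC at the far end and CCGGAAG near the start, both on the other strand. In Psmd10 they mark 3 CCAAT boxes, 2 of them on the other strand. No match overlapped another in these 4 sequences. The log2 differences of these 4 genes were -0.014, -0.17, -0.081 and 0.11, none of them past the test.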

How the data were processed

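The authors deposited 1 intensity per probe set and array. Software and background correction: not given in the sources used here. The deposited intensity values are positive and reach 13711, and were taken as linear. Groups and numbers came from the sample titles. Of 28846 probe sets, 6640 controls were left out, and 19572 of the other 22206 had 1 symbol, giving 19505 genes (brightest probe set where a gene had several). Intensities were quantile normalized over the 22206, 16 was added and log2 taken, which understates changes of dim genes. The limma package (3.58.1, under R 4.3.3) fitted all genes with lmFit and a trended eBayes, 2-sided, with Benjamini-Hochberg adjustment over all genes and a threshold of 0.05. The fit had 2 residual and 5.09 prior degrees of freedom. It was run on simulated data with arrays drawn independently. That simulation lacked the part that same-numbered arrays share, so it does not give the error rate for these arrays. With the replicate number as a block, 1 residual degree of freedom was left.

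Background was taken as the 95th percentile of 5222 negative control probe sets on each array. Only 4 arrays limit the precision. Genes described one by one were the catalytic subunits, the 5 largest differences in each direction, the extremes of each family, all Psme, Psmf and Psmg genes and, of each pathway list, the extremes; genes outside this rule were named after their values were seen. The members and lists were chosen with earlier results of these data known. The catalytic comparison was planned with Psmb5 and used Psmb6 and Psmb7. Alternatives covered normalization, pseudocount, filters, probe sets, variance model, block, single arrays and members.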

Additional observations from a re-analysis of the deposited data

How the results depend on the processing

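The count of 0 proteasome genes past limma's threshold held under each alternative run on all 4 arrays except the replicate block. With the block 6 passed (12.8%, against 13.7% of all genes), and all genes called moved from 110 to 2674. The shared number is not stated to mark a shared culture or batch; deviations of same-numbered arrays correlated with r = 0.729 across all genes. All genes called were 16 with the intensities as deposited, 52 with median centring and 56 without the intensity trend, and 183 to 277 without 1 of the arrays. The median log2 change of the members was -0.099 with median centring, -0.011 in the arrays numbered 1 alone, and -0.089 to 0.031 without 1 of the arrays. Leaving out the 5 non-standard members, an alternative added after seeing the data, gave -0.066. The cause of these moves was not tested.

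Genes near 0 changed sign: 5 of the 47 members as deposited (Psma3, Psma5, Psmb7, Psmc2 and Psme1), 6 with median centring (these and Psmb4), 5 in the arrays numbered 1 alone, 11 in those numbered 2 alone, and 34 in at least 1 of the fits that leave out 1 array. Of the genes described by the rule, as deposited, Psmb7 was at -0.014, Psme1 at -0.017 and Blmh at -0.028; with median centring they were at -0.033, -0.036 and -0.046. In the arrays numbered 1 alone, Psmb6 was at 0.019, Psmf1 at 0.020 and Blmh at -0.11; in those numbered 2 alone, Psmb3 was at -0.016, Psmb7 at -0.056, Psme1 at -0.048, Psme2b at 0.0020 and Psme4 at 0.15. Without 1 of the arrays, the log2 differences of those that then changed sign ran over these ranges: Blmh -0.15 to 0.15, Nfe2l1 -0.31 to 0.092, Nfyc -0.49 to 0.081, Psma8 -0.064 to 0.12, Psmb3 -0.066 to 0.28, Psmb6 -0.12 to 0.087, Psmb7 -0.14 to 0.18, Psmc3 -0.025 to 0.15, Psmd6 -0.32 to 0.044, Psme1 -0.083 to 0.089, Psme2 -0.61 to 0.11, Psme3 -0.23 to 0.14, Psme3ip1 -0.029 to 0.19, Psme4 -0.57 to 0.39, Psmf1 -0.089 to 0.063, Psmg4 -0.72 to 0.17. With the filters, Psma8 (both percentiles) and Psmb11 (the 50th) were not tested. The 2 arrays per group limit what could be detected; Psma8, Psmb11 and Psmg3 lay below background on all arrays.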
